A study of Mus musculus with 6 samples.

Results

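The mitochondrial ribosomal proteins are described here in left ventricles of mice labelled as overexpressing PGC1alpha (group name PKI) and of mice labelled wild-type (WT), with 3 libraries in each group. All animals were C57BL/6J and 12 months old, and no label names the promoter or construct behind the overexpression. The members are the genes whose symbol is Mrpl (large subunit) or Mrps (small subunit) followed by a number and at most 1 letter from a to c, which gave 78 of the 52550 genes of the deposited table. Of these, 49 belong to the large and 29 to the small subunit. All 78 had a mean of at least 1 FPKM, the minimum for testing. FPKM is the number of fragments scaled to the length of the transcript and to the mapped total. A comparison of levels between genes therefore depends on the transcript length that was used.

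The mitochondrial ribosome sits in the matrix, associated with the inner membrane, and translates the messenger RNAs of the mitochondrial genome, which encode core subunits of the respiratory chain and of ATP synthase. Its rRNAs are transcribed in mitochondria, whereas all of its proteins are encoded in the nucleus, made in the cytosol and imported. Some of the proteins descend from bacterial ribosomal proteins and others were gained in the mitochondrial lineage. PGC1alpha is a transcriptional coactivator that works with NRF1, GABP and ERR factors on nuclear genes for mitochondrial proteins, and the heart depends heavily on respiration.

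The label of the PKI libraries was not borne out by Ppargc1a, the gene that encodes PGC1alpha. It had 11.6, 11.8 and 11.4 FPKM in the libraries labelled PKI, against 14.2, 12.8 and 12.4 FPKM in those labelled WT. All 3 PKI values thus lay below all 3 WT values, and the log2 change was -0.16 (SE 0.07, limma adjusted p = 0.0967). Under each of 3 scalings between libraries Ppargc1a was called lower, with a log2 change of -0.44 (limma adjusted p = 0.00521) under median-of-ratios scaling, which sets the libraries to a common median ratio per gene. The exact two-sided permutation p was 0.1, the smallest that 3 against 3 libraries allow. No label names the construct, so whether its transcript would be counted under Ppargc1a is not known. The groups are therefore called the libraries labelled PKI and labelled WT.

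Properties of the libraries moved with the groups. Transcripts of the mitochondrial genome and their nuclear copies held at most 78.2% of the FPKM total in the libraries labelled PKI, against at least 81.8% in those labelled WT, so the other genes shared a larger remainder in PKI. The median log2 change of all 9907 tested genes was 0.21 as deposited and -0.02 after median-of-ratios scaling. Summed markers of fibroblasts (8 genes) lay at 256 to 333 FPKM in PKI and 86.3 to 128 FPKM in WT, and those of macrophages (8 genes) at 212 to 229 FPKM in PKI and 70.1 to 108 FPKM in WT. Cardiomyocyte markers (10 genes) summed to 10832 to 11817 FPKM in PKI and 9968 to 10756 FPKM in WT, but 3 were called higher and 3 lower, with a median log2 change of 0.01, and after scaling 1 was called higher and 6 lower. The atrial sum (5 genes, 666 to 1497 FPKM in PKI and 270 to 478 FPKM in WT) follows Nppa, which was called higher (log2 change 2.01), whereas Sln, Myl4, Myl7 and Bmp10 had log2 changes from -1.72 to -0.56 that did not pass the test. All 5 erythroid genes were called lower on both scales, with sums of 274 to 338 FPKM in PKI and 380 to 538 FPKM in WT. Endothelial markers (6 genes) summed to 116 to 130.2 FPKM in PKI and 108 to 115 FPKM in WT. Of these 6, 2 were called higher and none lower. After scaling none was called higher and 1 was called lower, with a median log2 change of -0.11. No gene of these lists was at 0. The part of these differences in the results below was not tested, and in such tissue fewer cells of a type and less RNA per cell cannot be told apart. The labels do not say whether the libraries of a group come from separate animals, so the p-values measure the spread between these libraries, which may be technical.

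As deposited, 9 of the 78 mitoribosomal protein genes were higher in the libraries labelled PKI and 1 was lower, counting a gene as called at a limma adjusted p under 0.05 over all tested genes. Among all tested genes, 36.4% were called higher and 2.96% lower. The members called higher were Mrpl20, Mrpl52, Mrpl33, Mrpl24, Mrpl13 and Mrpl19 of the large subunit and Mrps12, Mrps6 and Mrps25 of the small subunit, and the member called lower was Mrpl58. The median log2 change of the 78 members was 0.12, with an interquartile range of 0.04 to 0.21, against a median of 0.21 over all tested genes. A log2 change above 0 was found for 65 members and below 0 for 13, but 57 members lay below the median of all tested genes and 21 above it.

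After median-of-ratios scaling the direction of most members turned. Of the 78 members, 1 was then called higher and 12 were called lower, beside 7.82% of all tested genes called higher and 9.18% called lower. The median log2 change of the members was -0.14 after scaling, and 68 of the 78 lay below 0. The turn from above 0 to below 0 was seen for 55 members. Mrpl20 was the 1 member called higher in both fits. A statement that a mitoribosomal gene was higher in PKI thus refers to its FPKM as deposited unless the scaled value is given beside it.

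**Figure D1:**
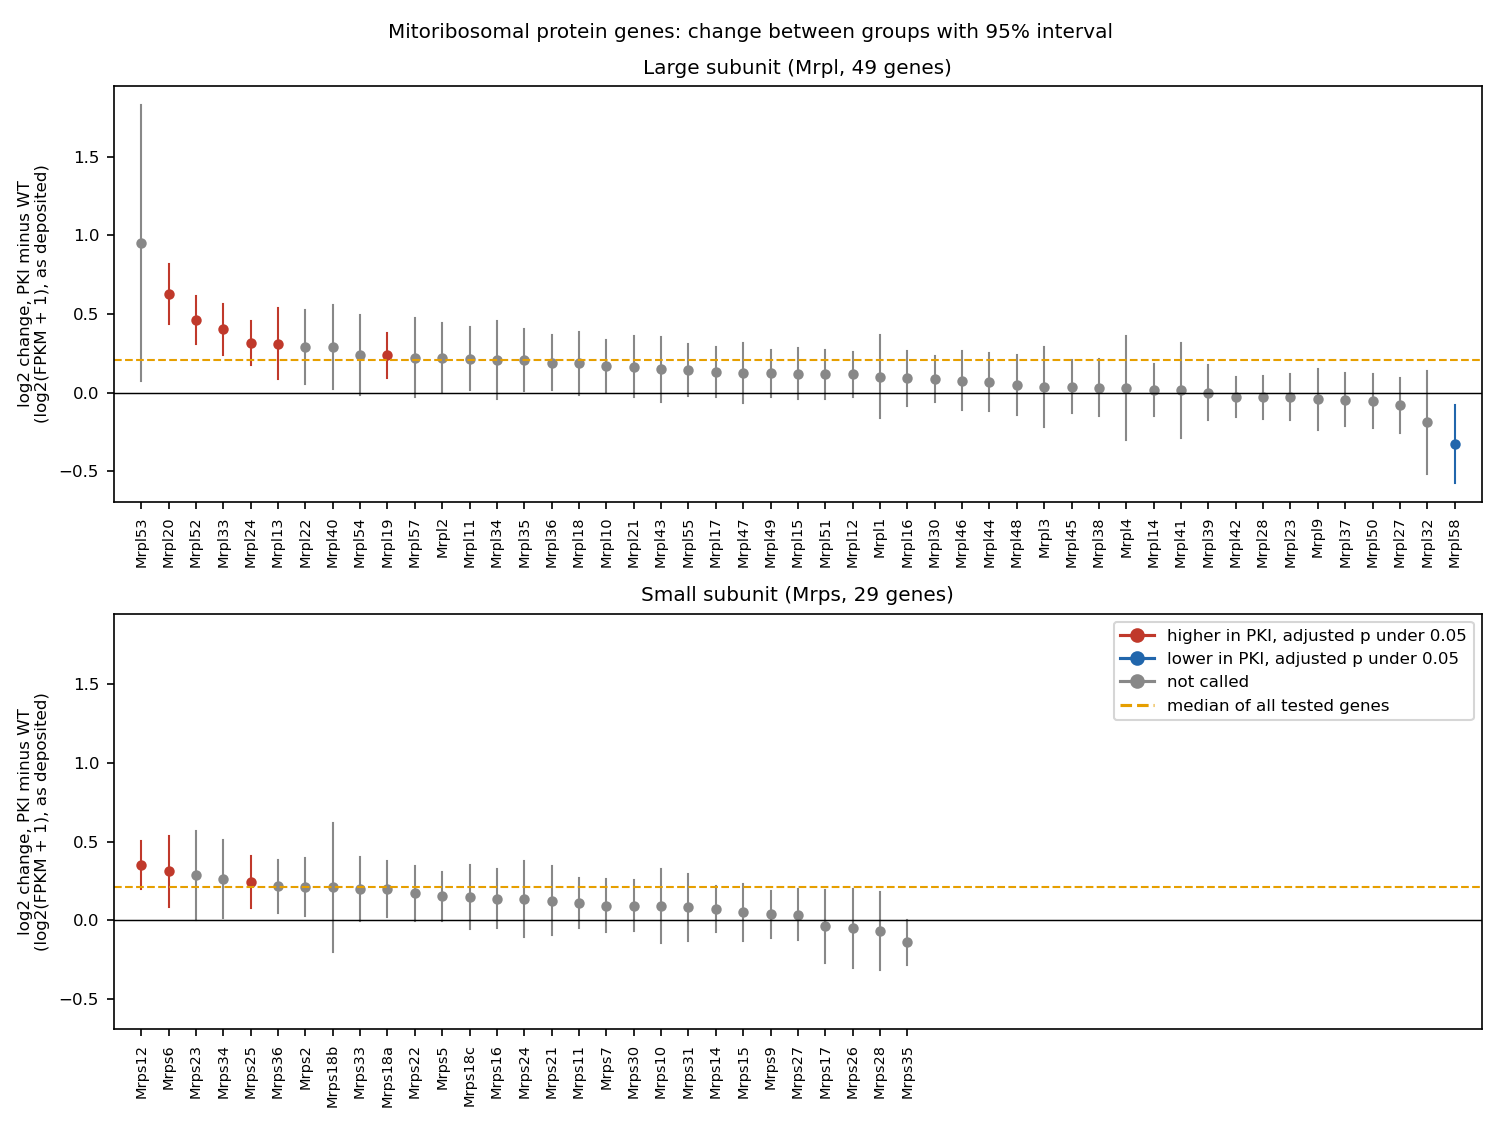
Log2 change (vertical axis) of each of the 78 members, PKI minus WT, on the log2(FPKM + 1) scale as deposited, with 95% confidence intervals from limma; lines mark 0 and the median of all tested genes (0.21). Genes run from the largest to the smallest change, large subunit in the upper and small subunit in the lower panel, and colour marks those called. Most members lie above 0 (65 of 78) and below the median of all tested genes (57 of 78).

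Separation of the groups gave the same picture. All PKI values lay above all WT values for 30 members and below them for 2, where 51.3% and 4.53% of all tested genes did so. After scaling, 3 members had all PKI values above and 33 had all PKI values below the WT values, beside 16.6% and 20.7% of all tested genes.

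As deposited, the large and the small subunit had similar medians and shares of called genes. Of the 49 large subunit genes 6 were called higher and 1 lower, and of the 29 small subunit genes 3 were called higher and none lower by limma. The shares over all tested genes were 36.4% higher and 2.96% lower. At an unadjusted p under 0.05 there were 13 higher and 1 lower in the large and 8 higher and 0 lower in the small subunit. Of all 9907 tested genes, 4698 were higher and 393 lower at that threshold. The median log2 changes were 0.12 for the large and 0.13 for the small subunit, and after scaling -0.15 for the large and -0.13 for the small subunit. After scaling 1 large subunit gene was called higher and 10 were called lower, against none higher and 2 lower in the small subunit, a difference that was not tested. The scaled shares over all tested genes were 7.82% higher and 9.18% lower. The large subunit genes summed to 867, 814 and 831 FPKM in the libraries labelled PKI, against 767, 753 and 762 FPKM in those labelled WT. Those of the small subunit summed to 370.3, 346 and 355 FPKM in PKI, against 315, 310.3 and 332 FPKM in WT. For both subunits every PKI sum lay above every WT sum, by 1.10-fold for the large and 1.12-fold for the small subunit.

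The ratio of the subunits within a library does not depend on a scaling that uses a single factor for each library, as median-of-ratios scaling does. The large over the small subunit sum was 2.34, 2.35 and 2.34 in the libraries labelled PKI, against 2.43, 2.43 and 2.29 in those labelled WT. The PKI ratios lay within the range of the WT ratios, and the means were 2.35 ± 0.00730 in PKI and 2.38 ± 0.0779 in WT (SD, n = 3 each), a log2 difference of -0.02. Without the 3 highest members of each subunit the ratio was 2.85 ± 0.0226 in PKI and 2.83 ± 0.0499 in WT (SD, n = 3 each). The sum over all 78 members was 1195 ± 39.3 FPKM in PKI and 1079.8 ± 15.4 FPKM in WT (SD, n = 3 each), and after scaling 1069 ± 42.1 in PKI and 1189 ± 25.1 in WT. As a share of the FPKM outside the mitochondrial genome and its copies, the members held 75.8 ± 1.88 per 10000 in PKI and 79.5 ± 1.13 per 10000 in WT (SD, n = 3 each).

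**Figure D2:**
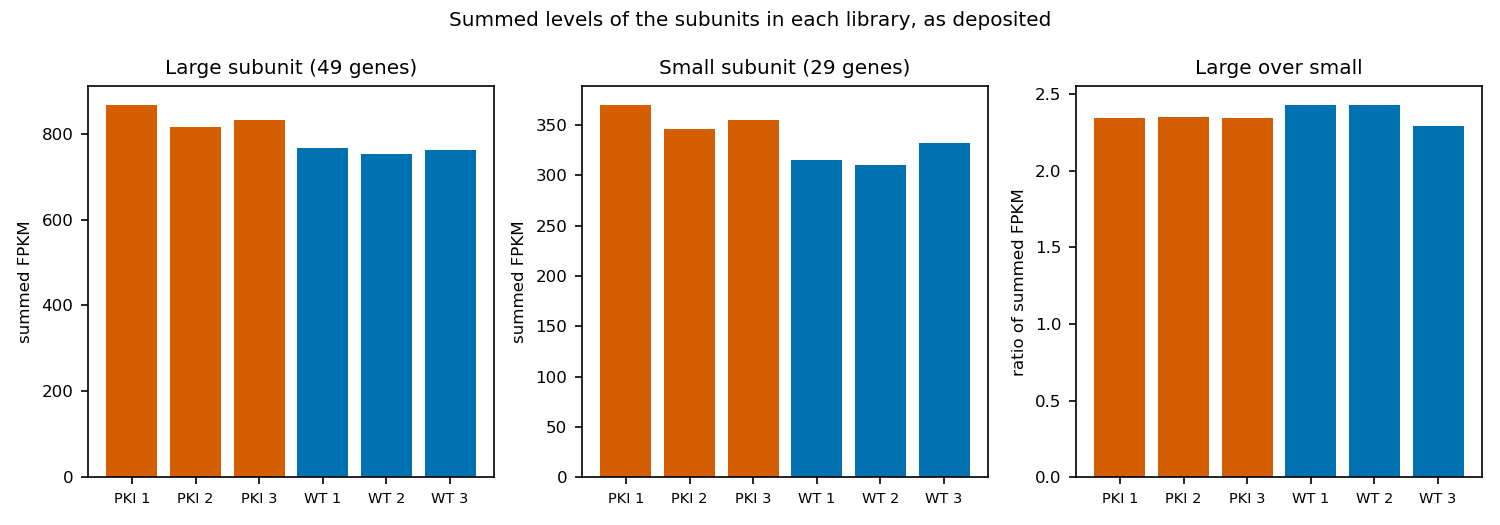
Summed FPKM of the 49 large and the 29 small subunit genes and the ratio of these sums, 1 bar per library, PKI left of WT. The sums of the PKI libraries are higher by 1.10-fold and 1.12-fold, while their ratios (2.34 to 2.35) lie within the WT range (2.29 to 2.43).

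Levels of the members spanned 47.2-fold, although the mature ribosome holds most of these proteins in single copy. The transcript length behind each FPKM value is not stated. In GENCODE M21 the low members Mrps10 and Mrpl48 have 8079 and 8152 exonic bases. The high members Mrpl12, Mrps23 and Mrpl18 have 1532, 1560 and 1398, and Mrpl42, also high, has 3682. The part that length has in this span was not tested. The median over the 78 members was 12.4 FPKM, taking each gene's mean over the 6 libraries. The large subunit genes had a median of 13.9 FPKM and the small subunit genes 8.44 FPKM. A mean of at least 20 FPKM was reached by 15 large and 4 small subunit genes, and a mean under 5 FPKM was found for 11 large and 7 small subunit genes.

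The highest member was Mrpl12 (ENSMUSG00000039640, GENCODE M21 on GRCm38, chromosome 11:120484613-120489065, plus strand), the homologue of the bacterial stalk protein L7/L12 and a binding partner of the mitochondrial RNA polymerase. It is present in several copies per ribosome. Mrpl12 had 63.8, 59.3 and 64.9 FPKM in the libraries labelled PKI, against 55.3, 58.9 and 59.0 FPKM in those labelled WT. The groups did not overlap, yet the lowest PKI and the highest WT value differed little, and the log2 change of 0.12 (SE 0.06, limma adjusted p = 0.166) did not pass the test. Mrpl10, which anchors the stalk, was at 22.0 ± 1.48 FPKM in PKI and 19.5 ± 0.723 FPKM in WT (SD, n = 3 each).

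Next in the order of levels stood Mrps23, a small subunit protein without a bacterial counterpart, with a mean over the 6 libraries of 45.6 FPKM. Mrpl18 (44.3), Mrpl42 (41.8), Mrps21 (40.5), Mrpl28 (40.3) and Mrpl34 (39.4 FPKM) followed. The means of these 6 neighbours differed by less than the WT SD of Mrps23 (7.63 FPKM). Mrps23 had 50.5, 49.9 and 49.4 FPKM in the libraries labelled PKI against 38.6, 35.3 and 49.8 FPKM in those labelled WT. A single WT library thus lay among the PKI values, and the log2 change of 0.29 did not pass the test (limma adjusted p = 0.0948). Mrpl18, whose bacterial homologue binds 5S rRNA, was at 47.2 ± 1.43 FPKM in PKI and 41.5 ± 4.59 FPKM in WT, and Mrps21, a homologue of bacterial S21, at 42.3 ± 3.86 FPKM in PKI and 38.7 ± 3.49 FPKM in WT (SD, n = 3 each).

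The lowest member was Mrps10, the homologue of bacterial S10, with 1.27, 1.55 and 1.22 FPKM in PKI, against 1.31, 0.97 and 1.34 FPKM in WT. The groups overlapped. At this level the addition of 1 FPKM before the logarithm compresses a change strongly. The next lowest were Mrpl48 (2.63 FPKM), Mrps17 (2.71), Mrpl32 (2.74), Mrpl15 (2.78) and Mrpl17 (2.85 FPKM), and none of these was called. Across the 78 members the level and the log2 change had a Spearman correlation of 0.05, where the values share the same 6 libraries. The median coefficient of variation of the members was 6.71% in PKI and 5.50% in WT.

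**Figure D3:**
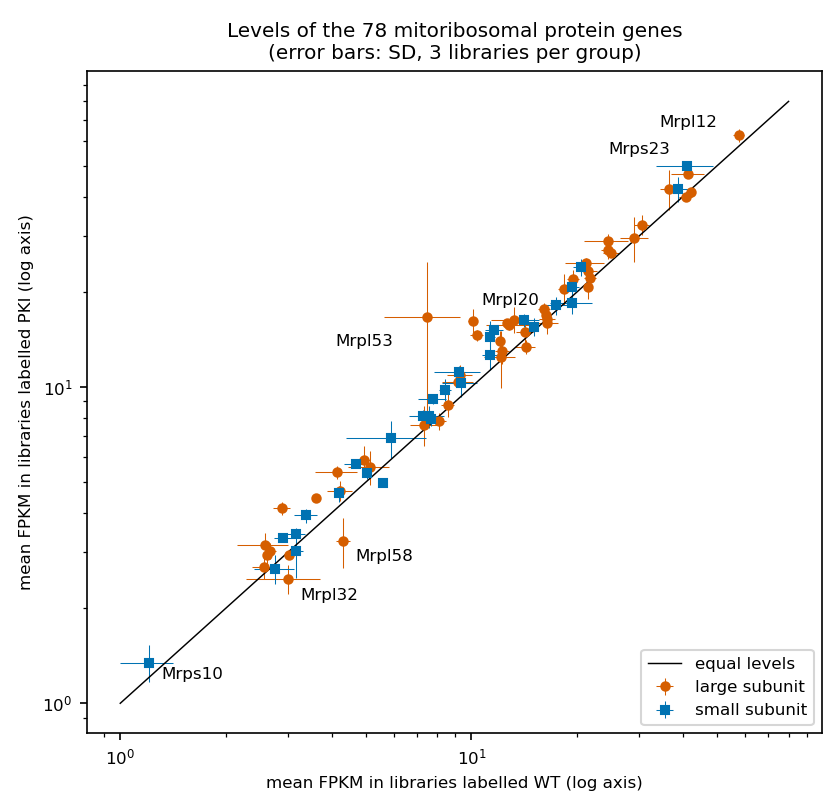
Mean FPKM of each member in the libraries labelled PKI (vertical, log axis) against those labelled WT (horizontal, log axis), with SD over 3 libraries; the line marks equal levels. Levels run from Mrps10 (1.35 FPKM in PKI, 1.21 in WT) to Mrpl12 (62.7 FPKM in PKI, 57.8 in WT), Mrpl53 has the widest PKI error bar, and Mrpl58 lies below the line.

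Promoters of 6 members are shown because these genes carry the changes or the highest level: Mrpl20, Mrpl52, Mrpl33 and Mrps12 with the smallest adjusted p among those called higher, Mrpl58 as the member called lower, and Mrpl12 as the highest. Each sequence runs from 250 bases before to 50 bases after the start, read from RefSeq on GRCm38.p6, 5′ to 3′ on the gene's strand. For Mrpl33 the RefSeq start lies inside the gene span of GENCODE. Capitals mark letters that match a searched motif on either strand, namely the GC-rich repeat of NRF1, ETS as bound by GABP (CCGGAAG), ERR (AAGGTCA) or YY1 (AAGATGG). No searched motif overlapped another in these 6 windows.
Mrpl20, chr4:155802628-155802927, plus strand: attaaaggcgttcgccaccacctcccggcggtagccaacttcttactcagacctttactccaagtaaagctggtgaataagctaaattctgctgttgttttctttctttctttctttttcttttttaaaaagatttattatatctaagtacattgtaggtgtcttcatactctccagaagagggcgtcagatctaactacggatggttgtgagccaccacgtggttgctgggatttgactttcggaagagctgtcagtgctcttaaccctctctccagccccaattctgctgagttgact
Mrpl52, chr14:54426659-54426958, plus strand: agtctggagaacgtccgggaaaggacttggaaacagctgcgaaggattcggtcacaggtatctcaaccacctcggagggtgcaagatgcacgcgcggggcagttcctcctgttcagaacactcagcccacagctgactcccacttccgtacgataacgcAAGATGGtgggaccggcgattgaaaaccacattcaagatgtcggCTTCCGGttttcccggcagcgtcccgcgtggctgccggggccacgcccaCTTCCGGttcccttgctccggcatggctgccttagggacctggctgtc
Mrpl33, chr5:31613701-31614000, plus strand: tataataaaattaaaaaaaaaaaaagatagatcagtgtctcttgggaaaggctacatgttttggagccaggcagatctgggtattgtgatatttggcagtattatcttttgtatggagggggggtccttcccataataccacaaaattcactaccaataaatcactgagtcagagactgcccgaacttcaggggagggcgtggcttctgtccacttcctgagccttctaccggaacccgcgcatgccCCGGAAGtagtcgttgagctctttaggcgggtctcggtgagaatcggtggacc
Mrps12, chr7:28741772-28742071, minus strand: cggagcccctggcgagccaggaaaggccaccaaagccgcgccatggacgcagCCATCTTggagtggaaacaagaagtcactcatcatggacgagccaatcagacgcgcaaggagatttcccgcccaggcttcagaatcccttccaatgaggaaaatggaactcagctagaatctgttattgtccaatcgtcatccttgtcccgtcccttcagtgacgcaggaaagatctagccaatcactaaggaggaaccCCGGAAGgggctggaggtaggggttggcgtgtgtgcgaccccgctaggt
Mrpl58, chr11:115403502-115403801, plus strand: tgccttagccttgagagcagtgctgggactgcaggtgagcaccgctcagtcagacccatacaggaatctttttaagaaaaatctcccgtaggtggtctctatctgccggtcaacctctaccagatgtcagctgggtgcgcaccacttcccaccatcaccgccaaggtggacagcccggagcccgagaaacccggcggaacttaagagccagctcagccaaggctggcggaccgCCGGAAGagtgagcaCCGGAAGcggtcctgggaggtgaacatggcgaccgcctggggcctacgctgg
Mrpl12, chr11:120484387-120484686, plus strand: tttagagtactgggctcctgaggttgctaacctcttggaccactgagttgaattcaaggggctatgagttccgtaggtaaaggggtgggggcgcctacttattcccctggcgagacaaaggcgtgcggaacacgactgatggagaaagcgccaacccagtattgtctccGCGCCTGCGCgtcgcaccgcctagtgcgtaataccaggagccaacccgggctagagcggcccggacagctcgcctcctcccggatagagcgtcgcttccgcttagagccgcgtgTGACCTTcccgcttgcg
The Mrpl20 window holds none of the 4 motifs. Mrpl52 holds a YY1 and 2 ETS matches, Mrpl33 an ETS match that spans its start, and Mrps12 a YY1 match on the opposite strand and an ETS match at its first bases. Mrpl58, which was lower, also holds 2 ETS matches, and Mrpl12 holds an NRF1 and an ERR match. A match describes letters only and is not a measured binding site.

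RefSeq promoters were matched for 69 of the 78 members, with 75 windows among 32851 for all genes. The ETS motif was in 26 of the 75 member windows (34.7%), against 18.1% of windows of tested genes and 8.86% of all windows. NRF1 was in 13 (17.3%), against 10.3% for tested genes and 4.60% of all windows. YY1 was also in 13 (17.3%), against 7.56% for tested genes and 6.34% of all windows. ERR was in 4 (5.33%), against 3.09% for tested genes and 4.72% of all windows. At least 1 of the 4 motifs was in 44 member windows (58.7%), against 33.6% for tested genes and 22.0% of all windows. The median GC content of member windows was 58.7%, against 61.0% for tested genes.

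Motif content and change can be set side by side. The 26 members with an ETS match had a median log2 change of 0.17, against 0.09 for the 43 without. The 13 members with an NRF1 match had a median of 0.04, against 0.14 for the 56 without. With any of the motifs the median was 0.12 over 44 members, against 0.13 over the 25 without. These are descriptions of the deposited values, and all of these medians lie below the 0.21 of all tested genes.

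Mrpl20 had the clearest change. It encodes the homologue of bacterial L20, a protein that in Escherichia coli joins the large subunit early in its assembly, and it lies on chromosome 4:155802878-155809975, plus strand (ENSMUSG00000029066). Mrpl20 had 17.5, 14.5 and 16.5 FPKM in the libraries labelled PKI, against 10.4, 9.89 and 9.95 FPKM in those labelled WT. The lowest PKI value thus stood well above the highest WT value. The means were 16.1 ± 1.53 FPKM in PKI and 10.1 ± 0.272 FPKM in WT (SD, n = 3 each), a ratio of 1.60, with a log2 change of 0.63 (SE 0.08, limma adjusted p = 0.00226). After scaling the log2 change was 0.35 (limma adjusted p = 0.0297), and Mrpl20 was called higher in each of the 17 fits that were run.

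Mrpl52 (ENSMUSG00000010406, chromosome 14:54426909-54429756, plus strand) encodes a large subunit protein found in mitochondria but not in bacteria. It had 15.2, 14.5 and 14.1 FPKM in the libraries labelled PKI, against 10.5, 9.88 and 10.6 FPKM in those labelled WT. Again the groups lay apart, with a narrow spread in each. The ratio of means was 1.41 and the log2 change 0.46 (SE 0.06, limma adjusted p = 0.00304). After scaling it was 0.18 and did not pass the test (limma adjusted p = 0.0933).

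Mrpl33 (ENSMUSG00000106918, chromosome 5:31596935-31664384, plus strand) encodes the homologue of bacterial L33. It had 3.91, 4.29 and 4.19 FPKM in PKI, against 2.71, 2.92 and 3.01 FPKM in WT. The groups did not overlap, and the ratio of means was 1.43. The log2 change was 0.40 (SE 0.07, limma adjusted p = 0.0059), and 0.17 after scaling (limma adjusted p = 0.151). Mrpl24 (ENSMUSG00000019710, chromosome 3:87919506-87923672, plus strand), the homologue of bacterial L24, had 15.41, 15.96 and 16.38 FPKM in PKI, against 12.81, 12.29 and 12.74 FPKM in WT. It too was separated, with a log2 change of 0.31 (SE 0.06, limma adjusted p = 0.00805), and 0.03 after scaling.

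In the small subunit the clearest change was in Mrps12 (ENSMUSG00000045948, chromosome 7:28739641-28741820, minus strand), the homologue of bacterial S12, which lines the decoding site. Mrps12 had 15.07, 15.18 and 15.03 FPKM in the libraries labelled PKI, against 11.78, 10.85 and 12.18 FPKM in those labelled WT. The PKI values were nearly equal, and all of them lay above the WT values. The ratio of means was 1.30 and the log2 change 0.35 (SE 0.06, limma adjusted p = 0.00724), or 0.08 after scaling (limma adjusted p = 0.478). Mrpl20, Mrpl24, Mrpl33, Mrpl52 and Mrps12 were called higher in all 6 fits that left out 1 library.

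The calls of the other 4 higher members depended on which libraries entered the fit. Mrps6, the homologue of bacterial S6, had 15.75, 15.05 and 12.26 FPKM in PKI, against 11.44, 11.56 and 10.95 FPKM in WT, with its PKI 3 value close to the WT range (log2 change 0.31, SE 0.10, limma adjusted p = 0.0397). Without any 1 library other than PKI 3 it was no longer called, at limma adjusted p from 0.0721 to 0.112. Mrps25, which has no bacterial counterpart, had 5.87, 5.59 and 5.70 FPKM in PKI, against 5.05, 4.60 and 4.38 FPKM in WT, and its groups did not overlap. Its log2 change was 0.25 (SE 0.07, limma adjusted p = 0.0317), its call was kept without WT 1 and lost without any other library, and after scaling it was -0.01.

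Mrpl13 and Mrpl19 are homologues of bacterial L13 and L19, and they are named because they complete the called members. Mrpl13 had 5.442, 5.105 and 5.564 FPKM in PKI, against 4.529, 4.434 and 3.498 FPKM in WT, with a log2 change of 0.31 (SE 0.10, limma adjusted p = 0.0381). The groups were apart, with WT 3 lowest, and the call was kept without WT 1 but lost without any other library. Mrpl19 had 4.50, 4.49 and 4.34 FPKM in PKI, against 3.66, 3.61 and 3.57 FPKM in WT, with a log2 change of 0.24 (SE 0.06, limma adjusted p = 0.0214). Both groups of Mrpl19 were tight and separate. Its call was kept without PKI 2 or without WT 1 and lost without PKI 1, PKI 3, WT 2 or WT 3, and after scaling its log2 change was about 0.

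Mrpl58 (ENSMUSG00000018858, chromosome 11:115403752-115412674, plus strand), also known as Ict1, encodes a peptidyl-tRNA hydrolase of the release factor family that is built into the large subunit and frees stalled ribosomes. It had 2.997, 2.861 and 3.950 FPKM in the libraries labelled PKI, against 4.254, 4.543 and 4.149 FPKM in those labelled WT. The value of PKI 3 lay close to the WT values without reaching them. The means were 3.27 ± 0.593 FPKM in PKI and 4.32 ± 0.204 FPKM in WT (SD, n = 3 each), with a log2 change of -0.32 (SE 0.11, limma adjusted p = 0.0459). The call was kept without PKI 3 (limma adjusted p = 0.0171) and lost without any of the other 5 libraries (limma adjusted p from 0.0831 to 0.125). After scaling it was -0.56 (limma adjusted p = 0.0149).

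**Figure D4:**
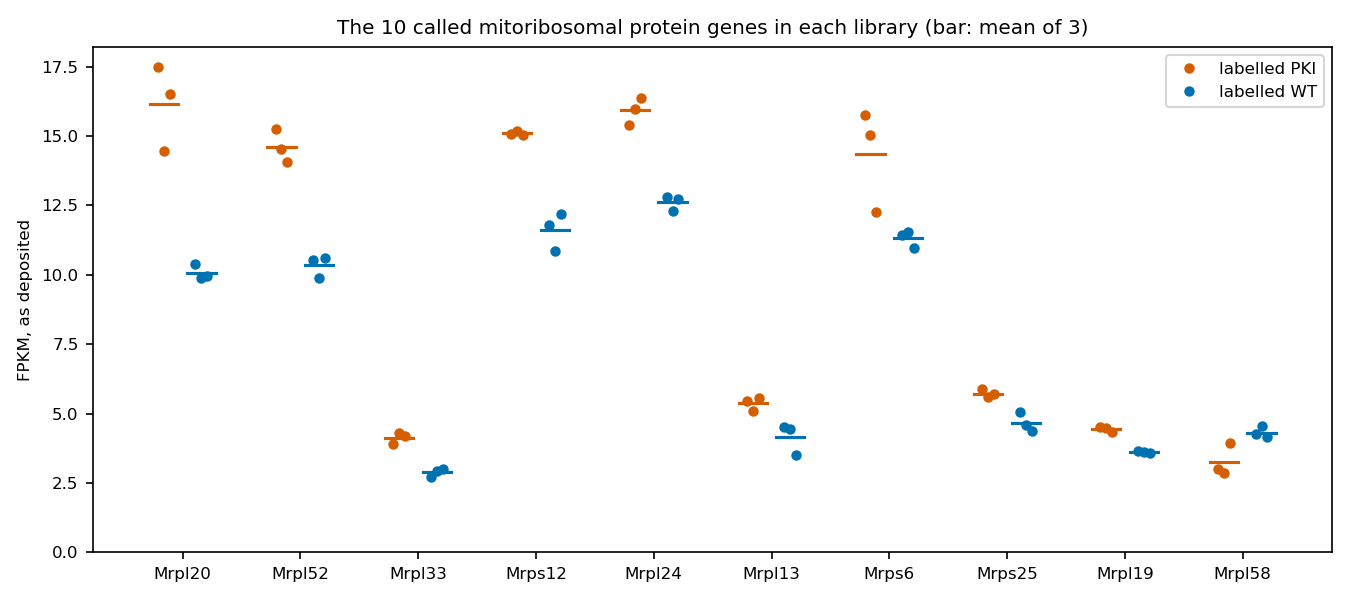
FPKM (vertical axis) in each library of the 10 members called as deposited, 1 point per library, PKI left of WT for each gene and a bar at the mean of 3. For all 10 genes the PKI and WT points are separate, PKI above WT for 9 and below it for Mrpl58.

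Mrpl53, a mitochondria-specific large subunit gene, had the largest difference and was not called. It had 18.2, 24.0 and 7.71 FPKM in PKI, against 5.51, 9.10 and 7.81 FPKM in WT. The value of PKI 3 lay within the WT range. The log2 change was 0.95 (SE 0.37, limma adjusted p = 0.0791), and without PKI 3 it was 1.39 (limma adjusted p = 0.01). In GENCODE M21 (GRCm38), 695 of its 790 exonic bases (88.0%) are shared with Gm42688 on the same strand, which had 3.06, 1.03 and 5.02 FPKM in PKI, against 3.76, 4.17 and 3.95 FPKM in WT. In the PKI libraries Gm42688 was lowest where Mrpl53 was highest and highest where Mrpl53 was lowest, so the values of these genes are uncertain.

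At the other end of the order only Mrpl58 passed the test as deposited. Mrps35, a mitochondria-specific protein of the small subunit, had 4.87, 4.99 and 5.10 FPKM in PKI, against 5.73, 5.57 and 5.49 FPKM in WT. It is the other member with all PKI values below all WT values, with a log2 change of -0.14 (SE 0.06, limma adjusted p = 0.103). After scaling it was called lower, at -0.39 (limma adjusted p = 0.00631). Mrpl32, which the m-AAA protease of the inner membrane cleaves before it joins the ribosome, had 2.18, 2.65 and 2.60 FPKM in PKI, against 3.59, 2.21 and 3.19 FPKM in WT. Those groups overlapped (log2 change -0.19, limma adjusted p = 0.304).

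The remaining members at the lower end were close to 0 as deposited. Mrpl27, the homologue of bacterial L27 near the peptidyl transferase centre, had a log2 change of -0.08, Mrpl50 of -0.05, Mrpl37 of -0.04 and Mrpl42 of -0.03. In the small subunit Mrps28 had -0.07, Mrps26 -0.05 and Mrps17 -0.04, and the RNA-binding pentatricopeptide protein Mrps27 had 0.04. None of these 8 was called. Mrpl27, Mrpl37, Mrpl42 and Mrpl50 were among the 12 members called lower after scaling, together with Mrpl9, Mrpl14, Mrpl23, Mrpl28, Mrpl39, Mrpl58, Mrps9 and Mrps35. Mrpl42 serves as an example, with 42.9, 40.4 and 41.1 FPKM in PKI against 42.4, 42.1 and 42.1 FPKM in WT, values that overlap, and a scaled log2 change of -0.32 (limma adjusted p = 0.0102).

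Members whose place in the ribosome departs from their symbol were looked at on their own. The 3 Mrps18 paralogs are related to bacterial S18, and Mrps18a has been placed in the large subunit in structures. Mrps18a was at 9.81 ± 0.797 FPKM in PKI and 8.41 ± 0.320 FPKM in WT, Mrps18b at 6.88 ± 0.900 FPKM in PKI and 5.91 ± 1.52 FPKM in WT, and Mrps18c at 12.6 ± 1.29 FPKM in PKI and 11.3 ± 0.572 FPKM in WT (SD, n = 3 each). None of the 3 was called, with log2 changes of 0.20, 0.21 and 0.15. Mrps30, also found in the large subunit, had a log2 change of 0.09 (limma adjusted p = 0.311).

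Mrps36 is known today as a component of the alpha-ketoglutarate dehydrogenase complex. It had 24.7, 22.1 and 24.9 FPKM in PKI, against 20.5, 21.4 and 19.4 FPKM in WT, with no overlap. Its log2 change of 0.21 had a limma adjusted p of 0.051. Its pseudogenes Mrps36-ps1 and Mrps36-ps2 were listed at means of 7.02 and 3.68 FPKM in PKI and 5.59 and 3.23 FPKM in WT, so reads may be divided among these copies. With Mrps18a and Mrps30 moved to the large subunit and Mrps36 left out, 6 of 51 large and 3 of 26 small subunit genes were called higher, and the median log2 changes were 0.12 and 0.13.

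By ancestry, 7 of the 47 members with a bacterial homologue were called higher and none lower, and of the 31 mitochondria-specific members 2 were called higher and 1 lower, beside 36.4% of all tested genes higher and 2.96% lower. After scaling, 1 was called higher and 6 lower of those with a bacterial homologue, and none higher and 6 lower of the mitochondria-specific members. The scaled shares over all tested genes were 7.82% higher and 9.18% lower. As deposited, the median log2 changes were 0.13 for those with a bacterial homologue and 0.09 for the mitochondria-specific members. Within the large subunit the median was 0.13 with a bacterial homologue and 0.07 for mitochondria-specific members. Within the small subunit these medians were 0.13 and 0.17, so the difference had the opposite direction. Mrps36 was counted among the mitochondria-specific members. Mrps34, also a mitochondria-specific member, had 11.4, 10.6 and 11.5 FPKM in PKI, against 7.74, 9.32 and 10.5 FPKM in WT. Its groups were only just apart (log2 change 0.26, limma adjusted p = 0.0839).

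Few other components of mitochondrial translation were called as deposited, where 36.4% of all tested genes were called higher and 2.96% lower. After scaling these shares were 7.82% and 9.18%. The mitochondrial rRNAs, which form the core of the ribosome, overlapped between groups as deposited. The small subunit rRNA mt-Rnr1 had 1805, 2053 and 1902 FPKM in PKI, against 1863, 2232 and 2035 FPKM in WT, and the large subunit rRNA mt-Rnr2 had 2428, 2655 and 2577 FPKM in PKI, against 2699, 2767 and 2589.9 FPKM in WT. After scaling both were called lower, mt-Rnr1 at -0.39 (limma adjusted p = 0.0199) and mt-Rnr2 at -0.37 (limma adjusted p = 0.004015), with all PKI values below all WT values. Of the 6 mitoribosomal proteins with other symbols limma called none. At an unadjusted p under 0.05 there were 2 higher and 0 lower, beside 4698 and 393 of all 9907 tested genes. The 6 genes had a median log2 change of 0.05, and Chchd1 (0.24), Gadd45gip1 (0.16) and Dap3 (0.06) led them by unadjusted p. After scaling 1 was called lower.

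Of 28 genes for assembly and rRNA modification 26 were tested, with none called higher and 1 called lower. That gene was Tfb1m, the methyltransferase that dimethylates the small subunit rRNA, with 4.27, 3.56 and 3.45 FPKM in PKI, against 5.03, 4.92 and 4.64 FPKM in WT. Its groups were apart (log2 change -0.30, limma adjusted p = 0.0282; -0.54 after scaling). The next genes of that list by p, Mterf4 and Mettl17, had limma adjusted p-values of 0.0523 and 0.103. After scaling none of the list was called higher and 5 were called lower, beside 7.82% and 9.18% of all tested genes (36.4% and 2.96% as deposited).

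Of 15 genes for translation factors and related proteins 2 were called higher and none lower, beside 36.4% and 2.96% of all tested genes (7.82% and 9.18% after scaling). Gfm1, the mitochondrial elongation factor G1, had 34.2, 34.3 and 35.4 FPKM in PKI, against 30.6, 28.7 and 29.7 FPKM in WT (log2 change 0.22, limma adjusted p = 0.0225). Letm1, an inner membrane protein, was at 7.18 ± 0.231 FPKM in PKI and 5.83 ± 0.501 FPKM in WT (SD, n = 3 each; limma adjusted p = 0.0324). Neither Gfm1 nor Letm1 was called after scaling, when 2 genes of the list were called lower, and Slirp, next in that list by p, was not called as deposited (limma adjusted p = 0.0666). Of 12 transcription factors and coactivators of nuclear genes for mitochondrial proteins 8 were tested, and limma called none as deposited. At an unadjusted p under 0.05 there were 1 higher and 1 lower, beside 4698 and 393 of all 9907 tested genes. The median log2 change of the 8 was -0.06, and after scaling 3 were called lower. The smallest p-values in that list were those of Yy1 (limma adjusted p = 0.0588), Ppargc1a (0.0967) and Esrra (0.227).

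The cytosolic ribosome and complex I bracket the mitoribosomal proteins. For the counts below, 36.4% of all tested genes were called higher and 2.96% lower as deposited, and 7.82% and 9.18% after scaling. Of 84 tested cytosolic ribosomal protein genes 61 were called higher and 1 lower, with a median log2 change of 0.32, against 0.12 for the mitoribosomal proteins. After scaling 2 were called higher and 3 lower, with a median of 0.03. Their sum was 1.23-fold higher in PKI (5635 ± 77.2 FPKM in PKI, 4594 ± 74.0 FPKM in WT, SD, n = 3 each), against 1.11-fold for the mitoribosomal proteins. Of 36 nuclear genes for complex I subunits 2 were called higher and 1 lower, with a median log2 change of 0.06, and after scaling none higher and 14 lower, with a median of -0.24. On both scales the mitoribosomal median lay below that of the cytosolic ribosome and above that of complex I. No test was made of these differences between lists.

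**Figure D5:**
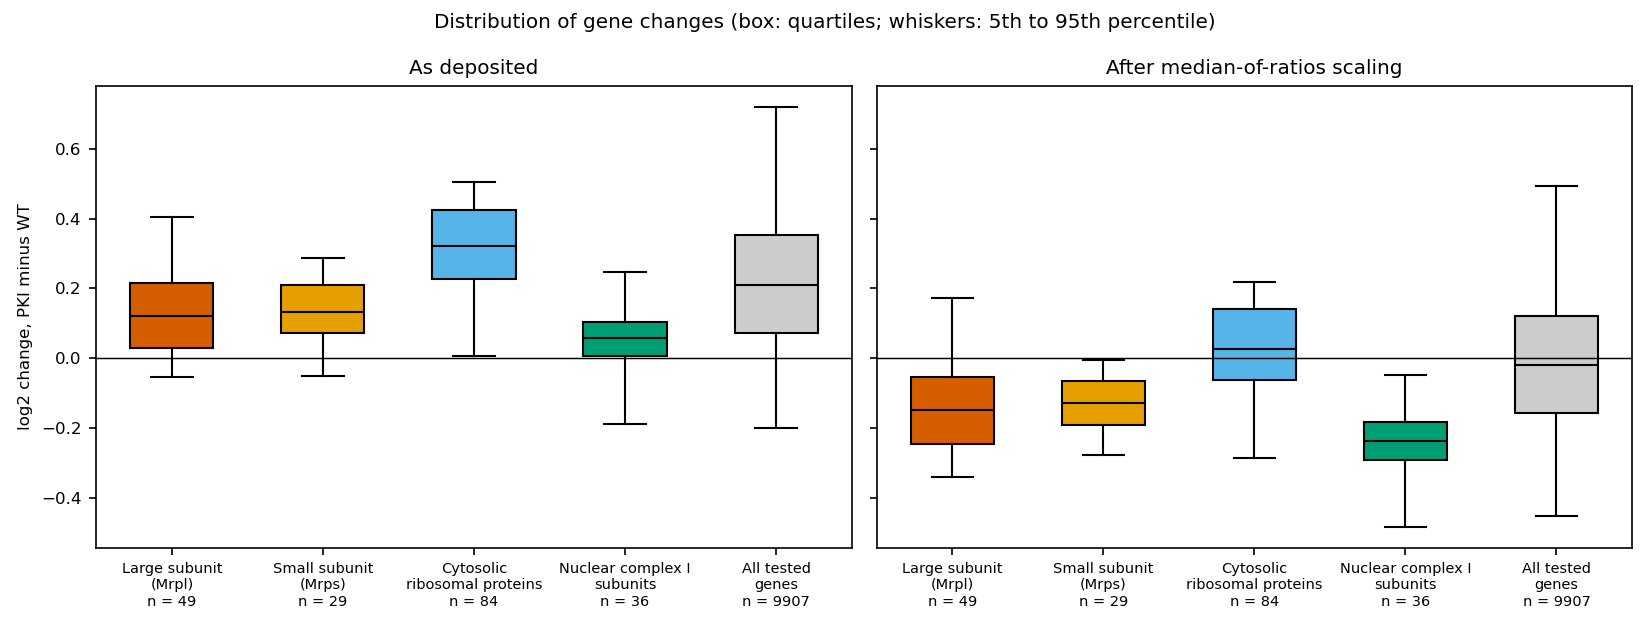
Log2 change (vertical axis), PKI minus WT, of the large and small subunit genes, cytosolic ribosomal proteins, complex I and all tested genes, as deposited (left) and after median-of-ratios scaling (right); boxes span the quartiles, whiskers the percentiles named in the title. Both subunits (medians 0.12 and 0.13 as deposited, -0.15 and -0.13 after scaling) lie between complex I (0.06 and -0.24) and the cytosolic ribosomal proteins (0.32 and 0.03).

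The genomic setting of the members bears on how their reads can be counted, since the library kit does not mark strand. In GENCODE M21 33 of the 78 members share exonic bases with another gene, 26 of them mainly with a gene on the opposite strand, and for 9 more than 20% of the exonic bases are shared. Among members called higher, Mrps25 shares 69.8% with Nr2c2, Mrpl19 36.0% with Gcfc2 and Mrpl24 26.3% with Rrnad1. These partners were low, with Nr2c2 at 0.717 FPKM in PKI and 0.674 in WT, Gcfc2 at 0.256 in PKI and 0.192 in WT, and Rrnad1 at 0.425 in PKI and 0.284 in WT. Mrpl23, at 2.94 FPKM in PKI and 3.03 in WT, stood below its pseudogene Mrpl23-ps1, at 9.86 FPKM in PKI and 10.4 in WT, and its level is uncertain for that reason.

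A head-to-head neighbour, taken as a protein-coding gene on the opposite strand whose start lies at most 1000 bases away or overlaps by at most 500, was found for 26 of the 78 members (33.3%). The share was 14.6% among 9032 tested protein-coding genes, 17.1% among cytosolic ribosomal protein genes and 41.7% among complex I genes. Mrpl46 and Mrps11 face each other with overlapping starts, and neither was called (log2 changes 0.08 and 0.11). For 17 of the 26 members the neighbour was tested, with Mrpl46 and Mrps11 each counted as the neighbour of the other, and 6 neighbours (35.3%) were called higher as deposited, close to the 36.4% of all tested genes. For 10 of these 17 neither gene was called. After scaling 1 neighbour was called higher and 1 lower. Mrps12, called higher, faces Sars2 across 172 bases, and Sars2, the mitochondrial seryl-tRNA synthetase, had 1.25, 1.27 and 1.63 FPKM in PKI, against 1.58, 2.14 and 1.57 FPKM in WT. Those values overlapped, with a log2 change of -0.21 (limma adjusted p = 0.158).

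All 6 neighbours called higher stood beside a member that was not called. Of the 17 members with a tested neighbour, however, only Mrps12 was itself called. The 6 pairs are given here, with log2 changes in parentheses. After scaling Fau alone of the 6 was still called higher (0.19, limma adjusted p = 0.0467). Mrpl49 (log2 change 0.12) lies 59 bases from Fau, which encodes a fusion of a ubiquitin-like protein and the cytosolic ribosomal protein S30, and Fau was at 84.2 ± 2.72 FPKM in PKI and 59.8 ± 1.18 FPKM in WT (SD, n = 3 each; log2 change 0.49, limma adjusted p = 0.00133). Mrpl32 (-0.19) faces the proteasome subunit gene Psma2 (0.30, limma adjusted p = 0.0186) across 75 bases. Mrps27 (0.04) faces Ptcd2 (0.27, limma adjusted p = 0.019) across 81 bases, and Mrps18b (0.21) faces Ppp1r10 (0.65, limma adjusted p = 0.00651) across 45 bases. Mrpl2 (0.22) faces Klc4 (0.44, limma adjusted p = 0.0146) across 207 bases, and Mrps34 (0.26) faces Eme2 (0.39, limma adjusted p = 0.0266) across 29 bases. Mrpl36 overlaps the start of the complex I subunit gene Ndufs6 by 29 bases, and neither Mrpl36 (0.19) nor Ndufs6 (0.01) was called as deposited, while Ndufs6 was lower after scaling (-0.28, limma adjusted p = 0.0193).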

How the data were processed

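RNA of left ventricles was isolated with Trizol, and libraries were made with the Illumina TruSeq RNA kit, per the labels' protocols. The authors deposited FPKM values, 1 per gene and library. CASAVA, Bowtie 0.12.2 and the build mm9 appear in the submitters' processing notes without a role. Which program and annotation made the FPKM is not stated there. Since the table holds no coordinates, positions were looked up by gene identifier in GENCODE M21 (GRCm38), where all 78 members were found, and were not converted between builds. The gene table was deposited in 2 copies with identical values.

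FPKM cannot be tested as counts. Whole reads could not be recovered from the low values, the depth is therefore unknown, and intervals from counting are not given. Groups follow the sample titles. The test used limma 3.58.1 (R 4.3.3) on log2(FPKM + 1), a scale that understates changes of low genes. It was two-sided, with a variance trend and without a replicate block, and covered the 9907 genes that averaged 1 FPKM or more, out of 24705 detected in any of the 6 libraries. P-values were adjusted after Benjamini and Hochberg over all of these genes, with a threshold of 0.05. Ratios are of mean FPKM. The procedure was tested on simulated data. Alternatives were other pseudocounts and filters, 3 scalings between libraries, array weights, no variance trend, the replicate block and leaving out each library.

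The members and lists were chosen with earlier results of these data known, and no list was tested as a set. Members were named by a rule: in each subunit the 5 largest and 5 smallest log2 changes, the 3 highest and 3 lowest levels, members called lower, the Mrps18 paralogs, Mrps30, Mrps36 and Mrpl12, plus the 3 smallest p-values of each pathway list. Other genes named were chosen after their values were seen.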

Additional observations from a re-analysis of the deposited data

How the results depend on the processing

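Scaling between libraries changed the results most, and the cause was not tested. Under median-of-ratios, quantile and nuclear-total scaling, members called higher numbered 1, 1 and 2 and members called lower 12, 9 and 5. Large subunit genes called higher numbered 1, 1 and 2 and lower 10, 8 and 4, and small subunit genes called higher 0, 0 and 0 and lower 2, 1 and 1. The median log2 changes under these scalings were -0.149, -0.118 and -0.0770 for the large subunit, -0.127, -0.113 and -0.0507 for the small subunit and -0.0202, -0.0221 and 0.0457 for all tested genes. Tested genes called higher then numbered 775, 753 and 1019 and lower 909, 762 and 603, and Ppargc1a was called lower at -0.44, -0.42 and -0.36 (limma adjusted p = 0.00521, 0.0081 and 0.0161). Mrps25 turned to -0.005 under median-of-ratios scaling.

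Array weights gave 14 members called higher, 5 of them in the small subunit, and 0 called lower. Of all tested genes, 4067 were then called higher and 354 lower. A minimum mean of 5 FPKM gave 1739 genes called higher and 186 lower, and 8 members called higher. It left 18 members untested, among them Mrpl58 (mean 3.79 FPKM), the 1 member called lower as deposited. The 0 members, thus 0 large subunit genes, called lower under this filter therefore say nothing about Mrpl58. No filter gave 6 members called higher, 1 of them in the small subunit, and 0 called lower. Of all genes, 2746 were then called higher and 231 lower, with a median of 0.0624. Pseudocounts of 0.1 and 0.5 gave medians of 0.26 and 0.24 over all tested genes.

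Same-numbered libraries had correlations of their deviations of -0.10, 0.00 and 0.05, and differently numbered ones from -0.13 to 0.11. With so few libraries this cannot tell whether the numbers pair them. The replicate block gave 6 members called higher and 0 lower, thus 0 lower in the large subunit. With that block, 2625 of all tested genes were called higher and 224 lower. Leaving out 1 library gave 5 to 13 members called higher and 0 to 1 lower, 4 to 9 large subunit genes called higher and 0 to 1 lower, 1 to 4 small subunit genes called higher, medians of 0.0899 to 0.148 for the small subunit, 2179 to 3162 genes called higher and 165 to 263 lower. The fewest members were called without PKI 1 and the most without WT 1. The log2 difference of the large over small subunit ratio, -0.0229, moved by less than its SD of 0.0338 under the alternatives run for it, and was above 0 without the 3 highest members of each subunit (0.0094) and with mean log2 in place of the sum (0.0093). No scaling between libraries was run for it. Median-of-ratios and nuclear-total scaling use a single factor for each library and cannot change the ratio, whereas quantile scaling can. With 3 libraries a group and unknown depth, the precision rests on the spread between libraries alone.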
